A study of Mus musculus with 10 samples.

Results

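The baseline transcriptome of untreated mouse distal colon crypts was described from the 3 control libraries of a series of 10. All 23364 genes of the authors' table were ranked by their mean in the control group, and 17339 of them had a mean above 0. The series also holds 4 libraries from mice given DSS (dextran sulfate sodium, which inflames the colon) and 3 from mice given AOM (azoxymethane, a carcinogen) followed by DSS, and these are not compared here. The control animals received no treatment; the labels give neither their strain, age and sex nor how many animals stand behind each library. Per the labels' protocols, colon tissue was minced and shaken in EDTA, which frees the epithelium as crypts, and only the distal part was used; polyadenylated RNA was selected for sequencing without a strand mark.

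Colon crypts are tubular pits of a single-layered epithelium. Stem and dividing cells sit near the base, and absorptive colonocytes, mucus-secreting goblet cells and rarer enteroendocrine and tuft cells mature towards the surface. The distal colon takes up salt, water and short-chain fatty acids made by bacteria, and it keeps those bacteria at a distance with a thick mucus layer, antimicrobial proteins and antibody carried across the cells. It lacks the Paneth cells and most of the digestive enzymes of the small intestine.

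Values are normalized reads, that is, reads divided by a size factor for each library, and a mean is over the 3 libraries. The deposited table prints means only; whole reads in each library were recovered from the digits of the means for 99.9% of genes, which hold 94.4% of the total. The libraries are called a, b and c in order of depth, since they could not be tied to the labels' replicate numbers, and sets of 3 values below are in that order. Recovered depth was 18429474, 18107192 and 16708067 reads, and 15969, 16624 and 15882 genes had at least 1 read. For 15 genes of high mean the library values are those of the only combination of reads in which the libraries lie within 2-fold of each other. Actb, Actg1, Adh1, Car4, Ceacam1, Gsdmc3, Gsdmc4, Krt19, Muc2, Muc13, Prdx6, Sema4g, Slc20a1 and Tgm3 are among these, and their SDs and the order of their libraries rest on that choice. For 9 genes (Pigr, Eef1a1, Krt8, Lypd8, Fcgbp, Dmbt1, Clca3, Eef2 and Mptx1) several combinations were possible, so the authors' mean stands alone with no error. Library b stood apart: across 11474 genes with a mean of at least 50, the Pearson correlation of log2 values was 0.99 between a and c, 0.971 between a and b and 0.955 between b and c (genes are not independent replicates). Each pair of libraries differed by more than counting noise, with a chi-square of 14.2 to 38.3 per degree of freedom, so all were kept as separate samples. The labels do not say that they came from separate animals, and the spread between them may be technical. No test was made, because 1 group is described.

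The housekeeping genes Gapdh and Hprt were even across the libraries. Gapdh, a glycolytic enzyme, had 10971, 11263 and 11458 normalized reads (mean 11231 ± 245, SD, n = 3). Hprt, of purine salvage, had 2017, 2002 and 2233 (2084 ± 129), and Actb, the cytoplasmic beta-actin, 29219, 31104 and 26065 (28796 ± 2546). The library values of Actb rest on the 2-fold choice, so no evenness is read from them. All 3 libraries had reads from genes of the Y chromosome, with Ddx3y at 820, 1091 and 855 and Eif2s3y at 1529, 1584 and 1427, while Xist, the RNA that coats an inactive X chromosome, had 8.69, 3.95 and 1.06.

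Reads were spread over many genes. The gene of highest mean held 0.429% of the total, the 10 highest 3.21%, the 100 highest 14.2% and the 1000 highest 47.2%. It took 1140 genes to reach 50% of the total, 5839 to reach 90% and 10051 to reach 99%. A mean of at least 10000 was found for 238 genes (1.02% of genes), and these held 23.3% of the reads. A mean of at least 10 was found for 13389 genes, or 57.3% of the table, and they held 99.9% of the reads. The median over genes above 0 was 292 normalized reads. Reads per gene rise with transcript length, so shares and ranks here are of reads. Only values given per kilobase (kb) take length into account. Elsewhere, genes called high, low or leading are so in reads, without regard to length.

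**Figure D1:**
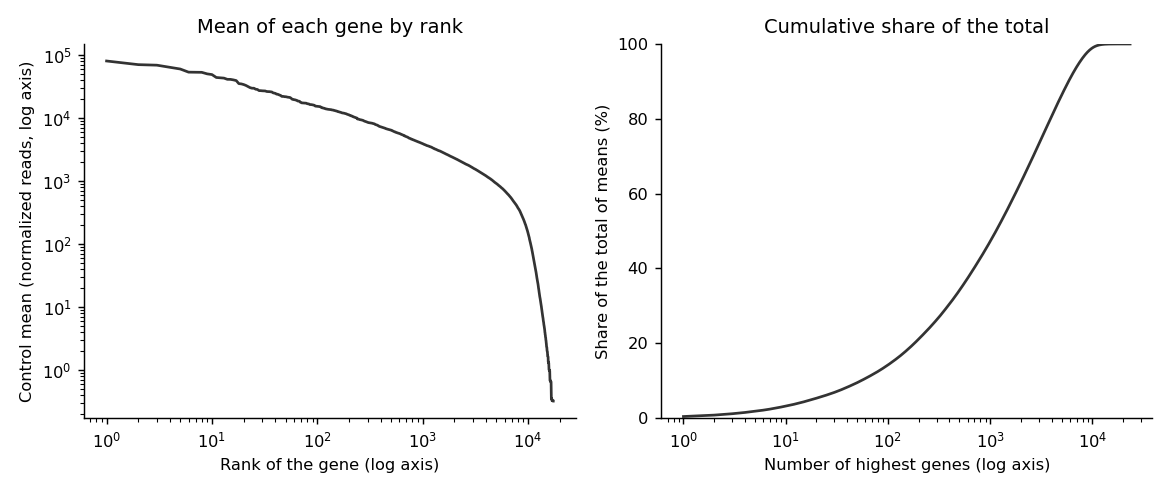
Left: control mean of each gene with a mean above 0 (normalized reads, log axis) by its rank (log axis). Right: share of the total of control means (%) held by the highest genes, against their number (log axis); the curve passes 14.2% at 100 genes and 47.2% at 1000, with no step at the first few genes.

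The genes with the most reads were mainly of mucosal defence, mucus, the cell skeleton and translation. The first was Pigr, the receptor that carries dimeric IgA and IgM across the epithelium, with a mean of 80806 normalized reads. Lypd8, a surface protein that binds flagella and keeps motile bacteria off the epithelium, had 64124. Dmbt1, a secreted scavenger receptor that aggregates bacteria, had 53745, and Mptx1, a mucosal pentraxin, 43757. These are 4 of the 9 genes known only by their mean.

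Mucus genes were also among the 30 highest. Fcgbp, a large protein cross-linked into the mucus gel, had a mean of 60274 and Clca3, a secreted metalloprotease of goblet cells, 53448. Muc2, the gel-forming mucin of the colon, had 45551, 59647 and 54967 normalized reads (mean 53388 ± 7179). Muc13, a mucin anchored in the apical membrane, had 44912, 40049 and 38809 (41256 ± 3226). Both rest on the 2-fold choice.

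The skeleton of the cells was represented by keratins and actins. Krt8, the type II keratin of simple epithelia, had a mean of 69346, and Krt19, a type I partner, had 44270, 41659 and 38076 (41335 ± 3110). Actg1, cytoplasmic gamma-actin, had 47266, 42255 and 40103 (43208 ± 3675). Tgm3, a transglutaminase that cross-links proteins, had 38549, 34825 and 31529 (34968 ± 3512). The library values of Krt19, Actg1 and Tgm3 rest on the 2-fold choice, so no order of libraries is read from them.

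Translation was led by the elongation factors Eef1a1 (mean 70702), which brings aminoacyl-tRNA to the ribosome, and Eef2 (50473), which moves the ribosome along the message. The ribosomal protein Rplp0 had 32668, 29573 and 36956 normalized reads (33066 ± 3708), and Rpl4 27178, 24842 and 30042 (27354 ± 2605). Hspa8, the constitutive HSP70 chaperone, had 35311, 29786 and 37319 (34138 ± 3901). All 3 were lowest in library b and highest in library c.

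Energy and ion transport were represented by the sodium-potassium pump and mitochondrial enzymes. The pump's beta subunit Atp1b1 had 27908, 28918 and 24676 (27167 ± 2216). Ckmt1, the mitochondrial creatine kinase, had 41756, 36356 and 40344 (39485 ± 2800). Atp5b, the catalytic subunit of ATP synthase, had 31908, 30200 and 29375 (30495 ± 1292). Atp1b1 was highest in b and lowest in c, while Ckmt1 was lowest in b.

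The other genes of the 30 highest were enzymes, an adhesion molecule, gasdermins and a ribosomal RNA. Prdx6, a peroxidase that also cleaves phospholipids, had 45592, 44761 and 42279 (44211 ± 1724). Ceacam1, a cell adhesion receptor, had 33150, 41893 and 30872 (35305 ± 5818). Adh1, an alcohol and retinol dehydrogenase, had 31416, 26165 and 31991 (29857 ± 3210). Selenbp1, which oxidizes methanethiol, a gas made by gut bacteria, had 31888, 25809 and 27897 (28531 ± 3089). Sema4g, a membrane semaphorin, had 31499, 26253 and 31861 (29871 ± 3138). Gsdmc2 and Gsdmc4, gasdermins of the C group, are taken up with the spread between libraries, as is Rn45s, the precursor of ribosomal RNA, which ranked the sixteenth. Without library b, 28 of the 30 were still among the 30 highest.

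**Figure D2:**
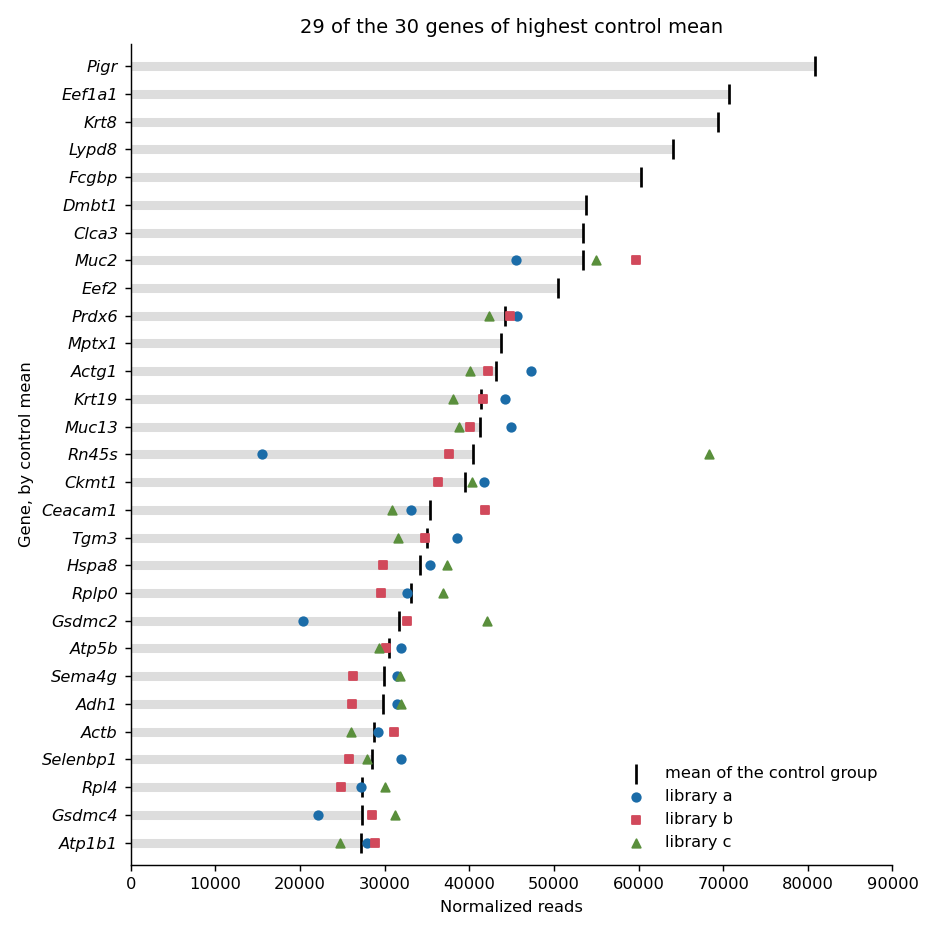
Normalized reads of 29 of the 30 genes of highest control mean; the black tick and grey bar give the group mean and the symbols libraries a, b and c, where recovered. The group mean falls from 80806 for Pigr to 27167 for Atp1b1, and the widest gap between libraries is that of Rn45s, from 15463 in a to 68381 in c.

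Per kb of the longest annotated transcript, genes of short transcripts moved up, among them those of small secreted proteins and of ribosomal proteins. Mptx1 came first with 54764 reads per kb, ahead of Lypd8 (52604), Eef1a1 (39410) and Krt8 (35417). Spink4, a small protease inhibitor of goblet cells, came the fifth with 27381 reads per kb, although it ranked 210 by reads. Zg16, a lectin of the mucus that binds bacterial walls, had 24192 reads per kb, Tff3, the trefoil peptide of goblet cells, 20806, and Guca2a, the hormone guanylin, 20397. By reads, these ranked 71, 229 and 172.

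Of the 20 genes first per kb, others were the ribosomal proteins Rplp1 (25291 reads per kb), Rplp0 (24349), Rps15 (21321), Rpl19 (20499) and Rps2 (20199). Krt19 had 26228, Ckmt1 24374, Actg1 22135 and Adh1 20012 reads per kb. Tpt1, a translationally controlled growth protein, had 22687, Oit1, a secreted epithelial protein, 21053 and Pigr 20994. The order depends on the length taken. With the median over a gene's transcripts, Pigr rose to 103068 and Clca3 from 14623 to 84972 reads per kb. Only 11 of the 30 genes highest by reads were among the 30 highest per kb of the longest transcript, against 20 with the median length.

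Function classes were lists of genes by symbol, a gene counted once. Counts of their genes by level stand beside the shares over all genes. Of all genes, 57.3% had a mean of at least 10, 45.2% at least 100 and 20% at least 1000, and 25.8% were at 0. The 33 classes that had a gene in the table took 2580 genes and 37.1% of the reads, and the other 20784 genes had 62.9%. The largest share was that of the cytosolic ribosomal proteins, 5.02% of reads over 87 genes, with 5%, 4.36% and 5.72% in libraries a, b and c (SD 0.68). Of these genes, 79 had a mean of at least 1000, and the class median was 11047 normalized reads. Per kb the class held 11.1%. Rplp0, Rpl4 and Rpsa (25317, 21276 and 29123), the laminin receptor of the small subunit, led it.

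Genes of the actin cytoskeleton and brush border held 2.68% (2.76%, 2.80% and 2.48%), and all 63 had a mean of at least 10. After the 2 actins came Myh14, a non-muscle myosin of cell junctions, with 26058, 23198 and 22632 normalized reads. Junction genes held 1.23%, led by Cdh1 (E-cadherin; 27182, 27244 and 24662), Epcam (25150, 24976 and 24030) and Ctnnb1 (beta-catenin; 16565, 17293 and 14752). Keratins held 0.756% of reads, and Krt8, Krt19 and Krt20 (14715, 18663 and 12590) made up 88.4% of that. Of 48 keratins, 16 had a mean of at least 10 and 16 were at 0.

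Mucus genes held 1.82% of reads over 40 genes, with 48.7% of it in Fcgbp, Clca3 and Muc2. Sugar nucleotide and glycan synthesis enzymes, which build the chains on mucins, held another 1.05%. Gfpt1, the first enzyme of the hexosamine pathway, had 17624, 24176 and 17739 normalized reads. B3gnt7, which extends sugar chains, had 17316, 17317 and 16915, and Gne, the first enzyme of sialic acid synthesis, 13983, 11976 and 17364. Every one of these 40 enzymes had a mean of at least 10.

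Antimicrobial and mucosal defence proteins held 1.55% of reads over 126 genes, of which 61 were at 0. Pigr, Lypd8 and Dmbt1 made up 68.0% of the class. Because these were held at their mean in each library, the spread of this share between libraries (1.54%, 1.51% and 1.59%) covers the rest of the class only, and the same applies to part of the mucus, keratin and translation shares. Lgals3, a galectin, came the fourth in the class with 22741, 22782 and 23020. MHC class I and peptide loading genes held 0.218%, led by H2-K1 (13016, 15628 and 11755), B2m (5258, 8894 and 5200) and H2-D1 (4195, 5163 and 4344). All 3 were highest in library b.

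Transport was spread over more genes. Solute carriers held 2.20% over 362 genes, 39 of them at 0. Slc25a5, an exchanger of ADP and ATP in mitochondria, had 21031, 22582 and 19051 normalized reads. Slc20a1, a phosphate carrier, had 20239, 21502 and 15633, and Slc26a3, the chloride-bicarbonate exchanger of the colon surface, 15934, 24495 and 11838. Slc25a5 and Slc26a3 were highest in b and lowest in c, while the library values of Slc20a1 rest on the 2-fold choice. Ion pumps and channels held 1.76%, with Atp1b1 and Atp2a3, a calcium pump of the endoplasmic reticulum (23112, 24757 and 22817), among its 3 highest genes. ABC transporters held 0.250%, led by Abcb1a, a drug efflux pump (10286, 14943 and 9578), Abcc3 (7380, 7851 and 6640) and Abcd3, a peroxisomal importer (3417, 4159 and 3166). The guanylin peptides and their receptor held 0.101%. Guca2a had 11434, 10934 and 13978, its receptor Gucy2c 6816, 7243 and 5929 and Guca2b, uroguanylin, 332, 300 and 364. Per kb, Guca2a was the eighteenth of all genes.

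The genes of energy metabolism described here are nuclear, since the table lists none of the mitochondrial genome. Respiratory chain and ATP synthase subunits held 2.11% over 88 genes (4.42% per kb). Atp5b, Atp5a1 (28222, 27951 and 25268) and Cox4i1 (13042, 11602 and 14288) led them. Glycolysis held 0.872% over 19 genes, led by Pkm (27076, 26202 and 24818), Aldoa (22811, 21737 and 21859) and Ldha (22371, 22675 and 20632). The tricarboxylic acid cycle held 0.660%, with Cs (citrate synthase; 16060, 16726 and 13785) and Ogdh (11048, 10247 and 9839) among its 3 highest genes. All 26 cycle enzymes had a mean of at least 100.

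Fatty acid and butyrate oxidation held 0.697% over 52 genes, of which 40 had a mean of at least 1000. Hadha, of the mitochondrial cycle, had 6920, 6539 and 6171, and Hadh 6687, 6747 and 6049. Fatty acid and cholesterol synthesis held 0.665%, unevenly across libraries (0.648%, 0.809% and 0.536%). Scd2, a stearoyl-CoA desaturase, had 25011, 28586 and 18597, and Hmgcs1, of cholesterol synthesis, 10674, 16156 and 8642, both highest in b. Acly, which makes cytosolic acetyl-CoA, had 11777, 11618 and 9865. Cytochromes P450, conjugating enzymes and related oxidoreductases held 1.07% over 197 genes, 50 of them at 0. The dehydrogenase Adh1 alone made up 14.7% of it, followed by the glutathione transferase Gstm1 (8881, 8196 and 8432) and the glucuronosyltransferase Ugt2b34 (7740, 9971 and 7575).

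Synthesis and turnover of protein and RNA took several further shares. Translation factors held 2.06%, splicing and RNA-binding proteins 1.98%, chaperones, folding enzymes and peroxiredoxins 1.83%, and translocon, glycosylation and vesicle coat genes 1.13%. Of RNA-binding proteins, Ddx5 (16201, 15623 and 16618), Pabpc1 (14549, 15260 and 16422) and Hnrnpa2b1 (14147, 14198 and 13579) had the most reads. Hsp90ab1, a cytosolic HSP90, had 26051, 24782 and 27665. Of the secretory pathway, Arf1 (10325, 10676 and 10037), Ddost (7422, 6943 and 7965) and Copa (7310, 7610 and 6554) led. Lysosomal genes held 0.745%, led by Psap (12771, 13086 and 12183), and the proteasome and ubiquitin 0.642%, led by Uba1 (7761, 7320 and 6407). Secreted and membrane proteases and their inhibitors held 0.765%, led by Spint2 (21595, 19469 and 23615), Prss32 (20679, 18667 and 21698) and Tmprss2 (16096, 15685 and 14545).

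Regulators and division genes spanned a range of shares. Intestinal transcription factors held 1.18% over 69 genes, chromatin genes 0.837% over 169, and cell cycle and DNA replication genes 0.549% over 121. Of the cycle genes, 118 had a mean of at least 10 but only 26 a mean of at least 1000. Chromatin was led by the histone variant genes H3f3b (11646, 12546 and 11782) and H3f3a (8092, 8488 and 9031). The lowest shares were those of the extracellular matrix (0.139%), the guanylin class above, MHC class II (0.0462%), smooth muscle (0.0121%) and immunoglobulin genes (0.00398%, from the joining chain Igj alone). Without library b, the MHC class II share was 0.0121%, the smooth muscle share 0.0085% and the immunoglobulin share 0.000194%. The matrix genes with the most reads were Lamb3 (6868, 6303 and 6225), a chain of the basement membrane laminin of epithelia, Mmp15 (3821, 3662 and 3720), a membrane metalloprotease, and Agrn (2568, 2712 and 2408).

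**Figure D3:**
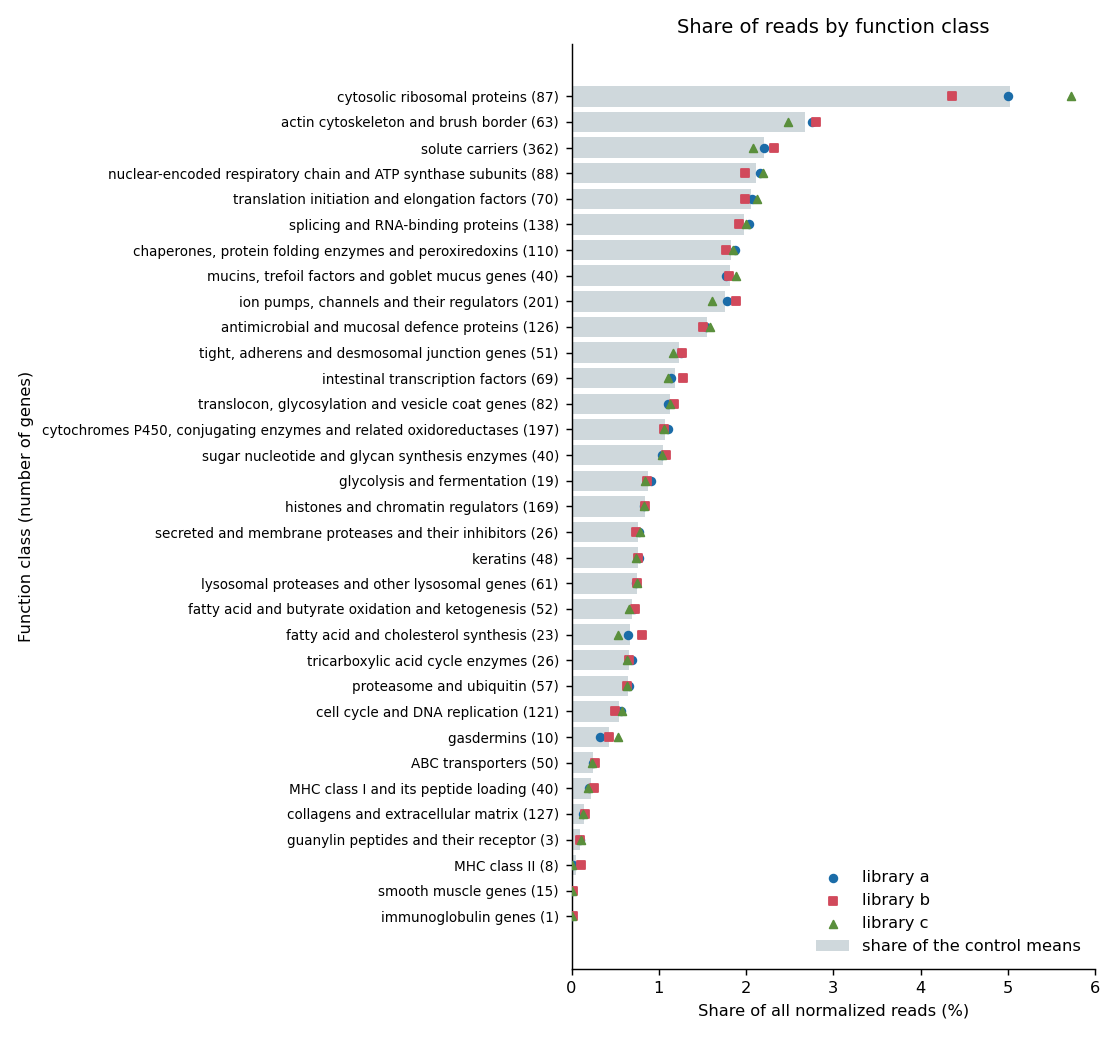
Share of all normalized reads (%) by function class, with the number of genes in each class; bars give the share of the control means and symbols libraries a, b and c, with 9 genes held at their mean in every library. The ribosomal class has the longest bar and the widest absolute spread, from 4.36% in b to 5.72% in c.

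Lists of cell type markers gave the lineages of the crypt. In bulk RNA, fewer cells of a type and less RNA per cell cannot be told apart, so the sums below are levels of lists, not cell numbers. Counts of list genes by level again stand beside 57.3% of all genes with a mean of at least 10, 45.2% with 100 and 20% with 1000. The epithelial label held: all 15 pan-epithelial genes had a mean of at least 100 and 13 at least 1000, with Krt8, Cdh1 and Epcam at the values given above. Within the list, Cldn4, a claudin, was low (710, 539 and 619), as was Lgals4, a galectin (188, 150 and 164).

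Absorptive colonocyte genes were all present. All 29 in the table had a mean of at least 10 and 25 at least 1000, and the list held 1.23% of reads (1.2%, 1.38% and 1.09%). The carbonic anhydrase Car4 had 23007, 23584 and 19084 normalized reads, and Car1 14133, 13689 and 14532. The water channel Aqp8 had 13612, 15962 and 10784. In 18 of the 29 genes library b was highest, against 41.3% of the 13380 genes that had library values and a mean of 10 or more. Fabp2, a fatty acid binding protein, had 854, 2263 and 982, and Aqp4, another water channel, 7766, 13806 and 7274. Of the sodium channel ENaC, the alpha subunit Scnn1a had 5243, 5554 and 4400, the beta subunit Scnn1b 318, 120.5 and 237 and the gamma subunit Scnn1g 65.7, 20.7 and 42.4. Per kb their means were 1448, 86.9 and 14.35 reads, and the beta and gamma subunits were lowest in b.

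Goblet cell genes were likewise complete. All 25 in the table had a mean of at least 100 and 24 at least 1000, and the list held 1.55% of reads (2.57% per kb). Beside the mucus proteins, Klk1, a kallikrein protease, had 17160, 13692 and 21326, and Agr2, a disulfide isomerase needed for mucin folding, 12959, 14254 and 14689. The transcription factors of the lineage had fewer reads. Spdef had 1541, 1518 and 1938, Atoh1, which sets the secretory fate, 1556, 1084 and 1613, and Foxa3 1157, 1019 and 1258. Retnlb, a bactericidal resistin-like protein, differed most between libraries, with 2655, 8820 and 5005, and Ang4, a bactericidal ribonuclease, had 4923, 10417 and 8918. Best2, a bicarbonate channel of goblet cells, went the other way, with 2480, 943 and 2367.

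Deep crypt secretory cells, which flank colon stem cells, had all 9 of their listed genes at a mean of at least 100. Reg4, a secreted lectin, had 16453, 15173 and 23664, and Kit, a receptor tyrosine kinase, 1217, 1152 and 1455. The Notch ligands Dll1 (623, 493 and 562) and Dll4 (550, 426 and 483) were both lowest in b.

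Stem cell genes were mixed. Of 24, 20 had a mean of at least 10. Lgr5, the receptor that marks crypt base stem cells, had 318, 269 and 361, and Ascl2, a factor of the same cells, 351, 260 and 341. Lrig1 (4101, 3867 and 4209), Prom1 (3149, 4975 and 3442) and Myb (2271, 1976 and 2482) were the highest, and they are also found outside stem cells. Olfm4, which marks stem cells of the small intestine, had 1, 5 and 0 reads.

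Proliferation genes were present throughout. All 30 had a mean of at least 100, led by Mki67 (5817, 5002 and 6187), Stmn1 (3618, 2777 and 4021) and Pcna (2287, 2078 and 2100). Top2a, the topoisomerase of dividing cells, had 2017, 1945 and 2455. The list held 0.190%, 0.160% and 0.198% of reads in libraries a, b and c, and library b was highest in 1 of the 30 genes, beside 41.3% over all genes as above.

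Rare secretory types were measurable. Of 30 enteroendocrine genes, 26 had a mean of at least 10. Ddc, an enzyme of serotonin synthesis, had 2324, 1502 and 2345, Chga, a granule protein, 1521, 1143 and 1908, and Chgb 1347, 1333 and 1531. Among hormones, peptide YY (Pyy) had 1409, 1016 and 1682, Insl5, made by colon L cells, 1426, 1127 and 1552, proglucagon (Gcg) 578, 588 and 668, and somatostatin (Sst) 91.7, 105 and 126. Hormones of the upper gut were near the floor, with cholecystokinin (Cck) at 7.72, 9.88 and 9.53, ghrelin (Ghrl) at 6.76, 6.91 and 10.6, and Gip at 0 in each library, which allows up to 3 reads per library. Of 21 tuft cell genes 18 had a mean of at least 10. Dclk1 had 350, 735 and 488, the taste channel Trpm5 338, 499 and 464, Hpgds, a prostaglandin D synthase, 330, 330 and 327, and the tuft cell factor Pou2f3 60.8, 89.9 and 80.5.

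Of 21 genes listed for Paneth cells, found in the small intestine, 12 were at 0. All 17 alpha-defensins were at 0 in each library, including Defa24. Lyz1 had 34.8, 247 and 33.9, with library b apart. Ang4 and Cd24a (5734, 7409 and 6247) are also made by goblet and deep crypt secretory cells. M cell genes had a mean of at least 10 in 10 of 10, led by Pglyrp1, a peptidoglycan-binding protein (5311, 5567 and 5764), and Tnfrsf11a (2395, 2364 and 2654), but the defining marker Gp2 had only 26.1, 20.7 and 6.36 and Spib 215, 421 and 213.

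**Figure D4:**
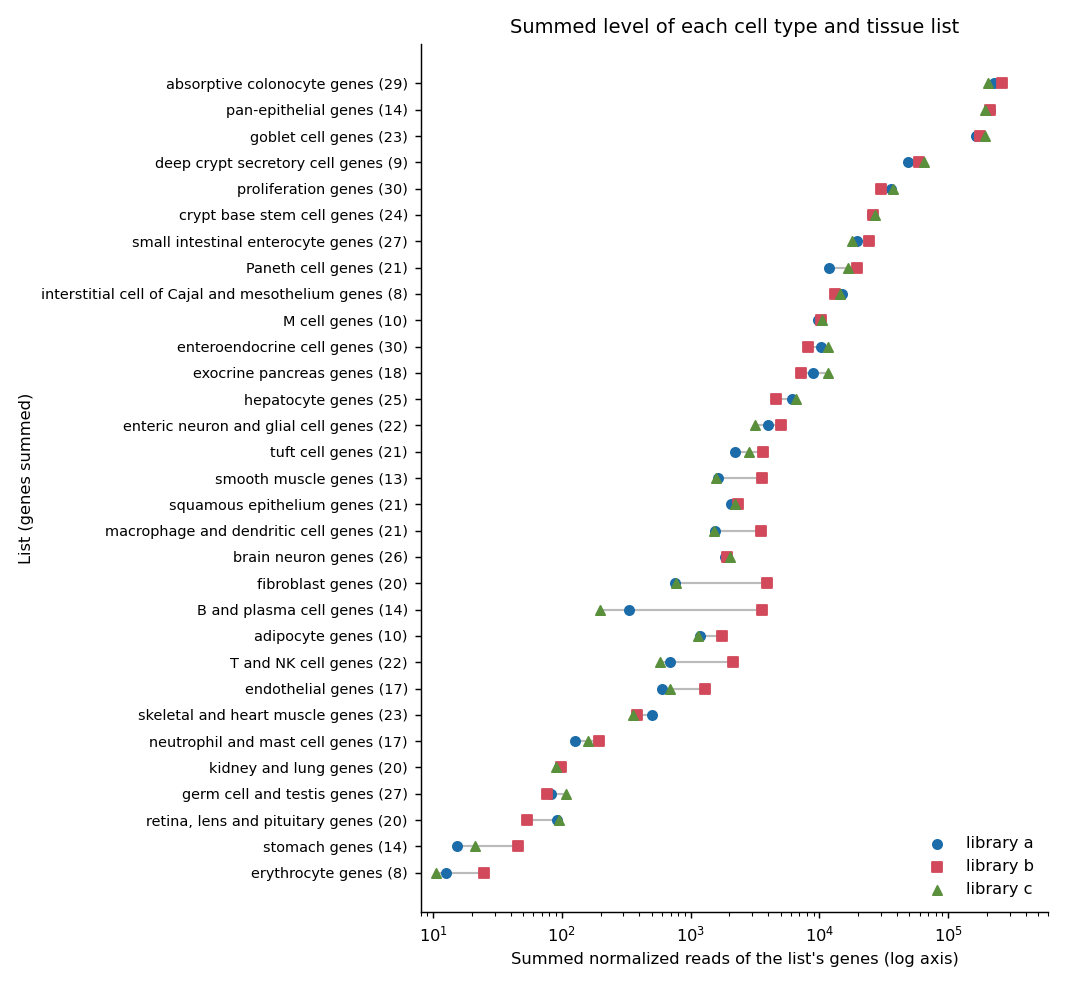
Summed normalized reads (log axis) of the genes of each cell type and tissue list with library values, in libraries a, b and c. The absorptive, pan-epithelial, goblet, deep crypt secretory, proliferation and stem cell lists lie at the top, with a highest library 1.05 to 1.32 times the lowest. Other epithelial lists lie lower among the rest, as the tuft cell list does, with a ratio of 1.66. Library b lies to the right of a and c for fibroblast, smooth muscle, endothelial, B and plasma, T and NK, and macrophage and dendritic cell genes.

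Genes of other gut regions were partly present. Small intestinal enterocyte genes had a mean of at least 10 in 18 of 27, beside 57.3% of all genes. Lactase (Lct) had 4.83, 4.94 and 5.30 normalized reads, sucrase (Sis) 3.86, 9.88 and 9.53, and the apolipoprotein genes Apoa1 and Apoa4 had means of 2.63 and 0.329. The ileal bile acid carrier Fabp6 had 128, 150 and 121. The 3 genes of that list with the most reads were the maltase Mgam (4998, 7643 and 5249), the glucose carrier Slc5a1 (4516, 4882 and 4623) and the peptide carrier Slc15a1 (4350, 3877 and 3255).

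Transcription factors of the gut differed widely in reads. Hnf4a, a nuclear receptor of the whole gut epithelium, had 19904, 20727 and 18946, Elf3 15033, 12759 and 13532, and Klf4 11522, 15883 and 9424. The intestinal homeobox factor Cdx1 had 9898, 8131 and 10395, and Cdx2 2121, 3197 and 1696. Gata6 had 1310, 1268 and 1323. Its relative Gata4, which sets the identity of the upper small intestine, had 13.5, 12.8 and 7.41, and per kb its mean was 3.31 reads against 344 for Gata6. Pdx1, of the duodenum and pancreas, had 8.69, 6.91 and 5.30. Sox2, of the stomach, had a single read in library b, and Trp63, of squamous epithelium, none. Nkx2-1, Pax2, Nkx2-5, Tbx5, Myod1, Ptf1a, Pou5f1 and Nanog, factors of other organs and of pluripotent cells, were all at 0, whereas Pax8 had 168, 150 and 165.

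Hox genes, which specify position along the body axis and lie in 4 clusters numbered from head to tail, followed their clusters. Of 39 in the table, 18 had a mean of at least 10, beside 57.3% of all genes, and the count was also 18 without library b. Hoxb13 had the most reads, with 9421, 7843 and 8189 (mean 8484 ± 830), and Hoxd13 had 2247, 1959 and 2387 (2198 ± 218). Hoxb9 had 1813, 1570 and 2068, and Hoxa10 1319, 1208 and 1197. Per kb, Hoxb13 reached 3846 reads, ranking 321 of all genes, Hoxd13 885 and Hoxa13 146.

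The clusters differed in how far towards the head they were active. In Hoxb, the 2 genes of groups 9 to 13 held 99.7% of the cluster's reads, and the 8 genes of groups 1 to 8 had means from 0 to 8.25. In Hoxd, the 5 genes of groups 9 to 13 likewise held 99.7%: Hoxd11 had 319.6, 281 and 309, Hoxd10 313, 211 and 318, Hoxd12 99.4, 88.9 and 105, and Hoxd9 44.4, 43.5 and 59.3. In Hoxa, both ends were present and groups 1 to 8 held 47.0%. Hoxa5 had 591, 567 and 665, Hoxa3 487, 528 and 700, Hoxa9 525, 556 and 450, Hoxa7 470, 405 and 453, Hoxa13 376, 367 and 304, and Hoxa2 193, 181 and 244. Hoxa11 (61.8, 67.2 and 73.1), Hoxa6 (56.0, 67.2 and 41.3) and Hoxa4 (26.1, 24.7 and 25.4) had fewer reads. In Hoxc, 7 of 9 genes were at 0, and Hoxc4 and Hoxc9 had a single read each, both in library b.

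**Figure D5:**
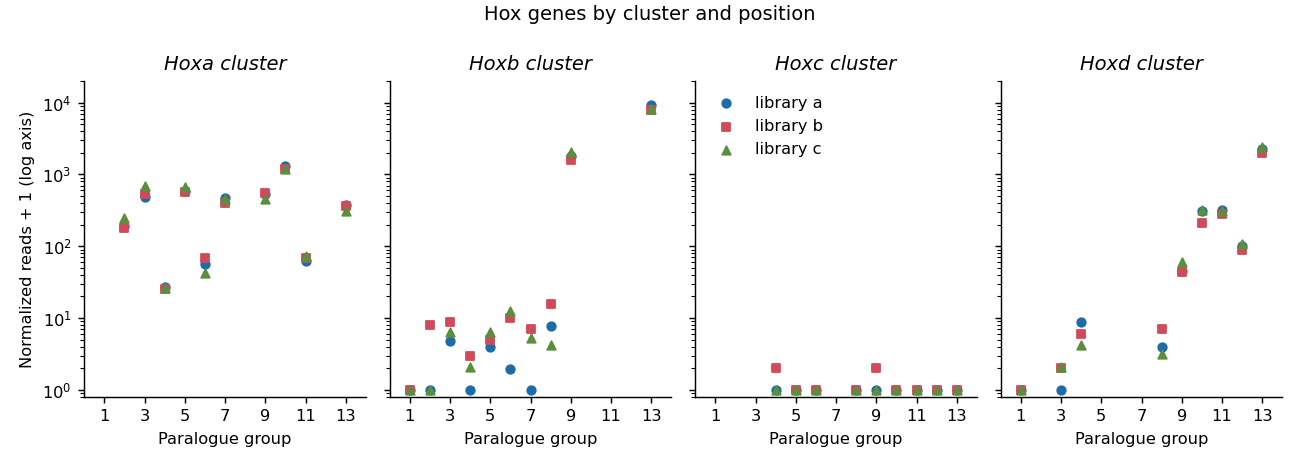
Normalized reads + 1 (log axis) of the Hox genes by paralogue group, which runs from head to tail, in libraries a, b and c, 1 panel per cluster. Hoxb and Hoxd rise at groups 9 to 13, with Hoxb13 at a mean of 8484 normalized reads, Hoxa is present along its length and Hoxc lies at the floor.

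Lists for cells outside the epithelium held few reads. The 132 genes of 8 lists (fibroblast, smooth muscle, endothelial, B and plasma cell, T and NK cell, macrophage and dendritic cell, neutrophil and mast cell, and erythrocyte) held 0.0302%, 0.0961% and 0.0293% of reads in libraries a, b and c, against 4.60%, 4.78% and 4.66% for the 204 genes of the epithelial lists. The 3 further lists, for interstitial cells of Cajal and mesothelium (0.0753%), enteric neurons and glia (0.0215%) and adipocytes (0.00719%), were left out of that sum; their highest genes, Ano1, Erbb3 and Pparg, are taken up below. Library b was highest in 19 of 20 fibroblast genes, 12 of 13 smooth muscle genes, 16 of 17 endothelial genes, 14 of 14 B and plasma cell genes, 21 of 22 T and NK cell genes and 20 of 21 macrophage and dendritic cell genes, beside 41.3% over all genes. It was highest in 5 of 17 neutrophil and mast cell genes, 3 of 8 erythrocyte genes, 13 of 22 enteric neuron and glial genes, 4 of 10 adipocyte genes and 1 of 8 genes of the Cajal cell and mesothelium list.

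The fibroblast list summed to 759, 3918 and 767 normalized reads. Its defining markers were nearly missing outside library b: Col1a1, of type I collagen, had 10.6, 136 and 3.18, and Pdgfra 0.966, 70.1 and 0. Pdgfrb did not follow them, with 390, 339 and 376. With library b left out, 7 of the 20 genes had a mean of at least 10, against 19 with it, and the list's share went from 0.00962% to 0.00406%. Smooth muscle genes summed to 1617, 3569 and 1569, with Mylk (848, 1141 and 770) and Smtn (415, 558 and 535) as the highest. Their defining genes Myh11 (13.5, 178 and 5.30) and Des (18.3, 162 and 4.24) were low in a and c.

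Sums for blood and vessel cells were also highest in library b. B and plasma cell genes summed to 334, 3598 and 197, with Igj at 56.0, 2176 and 16.9, Cd79a at 50.2, 232 and 23.3 and Ms4a1 at 17.4, 108 and 18.01. The list held 0.00730% of reads with library b and 0.00141% without it. T and NK cell genes summed to 687, 2115 and 583, with Ptprc, the pan-leukocyte phosphatase, at 158, 674 and 159.9 and Cd3e at 28.96, 57.3 and 20.1. Macrophage and dendritic cell genes summed to 1555, 3516 and 1514. Cd14 had the most reads in the list, with 1132, 1281 and 1291, and was highest in c, while Csf1r had 28.96, 124 and 7.41 and Emr1 2.90, 13.8 and 2.12. Endothelial genes summed to 597, 1294 and 688.5, where Pecam1 had 224, 292 and 162, but Cdh5 0.966, 29.6 and 0. No adult globin gene had a read under the symbols Hba-a1, Hba-a2, Hbb-b1 and Hbb-b2, although the entry Beta-s, a beta-globin, had 172, 275 and 61.4. What part these cells had in other differences of library b was not tested.

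The lists for other tissues below had medians near the floor, from 0 (kidney and lung) to 1.835 normalized reads (brain neurons). Each had members well above its median, and the counts stand beside 57.3% of all genes with a mean of at least 10. Of 14 stomach genes, 1 had a mean of at least 10 (Muc6, at 4.83, 30.6 and 9.53) and 0 did without library b. The defining stomach genes Gif and Atp4a had means of 0.329 and 9.67. Of 20 kidney and lung genes, 2 had a mean of at least 10 (Ager at 49.6 and Slc34a1 at 38.5), and Umod and Sftpc had means of 0.322 and 0. Of 27 germ cell genes 4 did, and of 20 retina, lens and pituitary genes 2. Of 26 brain neuron genes 8 did, with Mbp, a myelin gene with other transcripts elsewhere, at 1625, 1583 and 1723.

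A few genes named for other organs were well represented. Cela1, a pancreatic elastase, had 8340, 6526 and 10457 normalized reads, and Clps, the cofactor of pancreatic lipase, 461, 479 and 877, while Prss2, a trypsinogen, had 0.966, 1.98 and 3.18. Of the hepatocyte list, the tyrosine aminotransferase Tat had 2396, 2051 and 2182, transferrin (Trf) 1726, 1192 and 2012, transthyretin (Ttr) 1740, 1035 and 1936, and albumin (Alb) only 60.8, 53.3 and 86.9. Of the squamous list, the desmosomal protein Pkp1 had 1694, 1929 and 1757, while Krt5 was at 0. Ano1, a chloride channel used as a marker of pacemaker cells, had 8684, 8492 and 8190, and Erbb3, a receptor in the neural list that epithelia also make, 3757, 4720 and 2867. Elavl4, of neurons, had 2.90, 7.90 and 11.7. Pparg, in the adipocyte list, had 1004, 1500 and 1026, whereas Plin1 was at 0 and Adipoq had a single read.

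Where several genes encode the same enzyme or subunit, a single one often held nearly all reads per kb. Over 21 such groups the leading gene was the same with the longest and with the median transcript length. Ldha held 99.7% of the lactate dehydrogenase reads per kb (12062, against 36.9 for Ldhb), Slc25a5 98.9% of the adenine nucleotide translocators and Ckmt1 99.4% of the creatine kinases. Scd2 held 97.4% of the desaturases and Adh1 98.1% of the alcohol dehydrogenases. Eef1a1 stood at 39410 reads per kb beside 0.324 for Eef1a2, the form of muscle and neurons. Cox4i1, Cox6a1 and Cox8a, the common forms of cytochrome oxidase subunits, had 16964, 16944 and 15237 reads per kb, and their tissue-restricted forms Cox4i2, Cox6a2 and Cox8b 3.57, 4.96 and 53.2.

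The calcium pump of the endoplasmic reticulum was mainly Atp2a3, with 5116 reads per kb and 85.2% of its group, and not the more widespread Atp2a2 (890). Ucp2 had 2957 reads per kb, while Ucp1, the uncoupler of brown fat, was at 0. Other groups were mixed. Of the actins, Actg1 held 59.3% and Actb 40.2%. Of 14 carbonic anhydrases, Car4 held 43.3%, Car1 29.4% and Car2 24.1%. Hk1 held 63.3% and Hk2 36.1% of the hexokinases, and with the median length Hk1 rose to 77.5%.

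The low end of the table was large. No read in any library was found for 6025 genes, or 25.8% of the table, and 776 more had 1 read in all. A library that shows 0 reads of a gene could hold up to 3 by counting error, which is 2.90, 2.96 or 3.18 normalized reads in libraries a, b and c. Reads in a single library only were found for 1240 genes, of which 236 were seen in a, 726 in b and 278 in c. Without library b, 6751 genes were at 0. A mean under 1 was found for 7472 genes and a mean under 10 for 9975.

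Families of other tissues filled much of this part. Of 1102 olfactory receptors 1064 were at 0, of 329 vomeronasal receptors 313, of 38 taste receptors 35, of 52 hair keratin-associated proteins 44 and of 35 reproductive homeobox genes 34. All 12 interferon alpha genes were at 0, as were 18 of 20 major urinary proteins and 23 of 26 placental prolactins. Genes named for small RNAs, which are not a family of other tissues, were also mostly at 0. They were 608 of 613 genes named Mir and 89 of 105 small nucleolar RNA genes. Polyadenylated RNA was selected for sequencing, and what part this had in these zeros was not tested.

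Single members of these families stood out. Olfr613 had 350, 369 and 455 normalized reads, Olfr78, a receptor for short-chain fatty acids, 212, 214 and 351, Olfr165 149, 136 and 142, and Olfr920 17.4, 22.7 and 32.8. Of vomeronasal receptors, Vmn1r58 had 89.8, 76.0 and 139 and Vmn2r29 36.7, 21.7 and 41.3. Tas1r3, a subunit of the sweet and umami receptors, had 36.7, 51.4 and 27.5. Of 42 beta-defensins only Defb45 had a mean of at least 10 (42.5, 25.7 and 45.5). Mir22hg, a microRNA host gene, had 621, 798 and 530, and Mir17hg 294, 265 and 207. Klk1b5, of the kallikrein 1b family, had 211, 159 and 267.

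Families with members in epithelia are set beside the 57.3% of all genes that had a mean of at least 10. Of 25 claudins, 11 had a mean of at least 10, led by Cldn7 (15751, 14360 and 15362), Cldn3 (12608, 10357 and 13199), Cldn2, which forms a cation pore (4905, 3584 and 4270), and Cldn15 (2794, 3680 and 3049). Of 11 aquaporins 4 did, Aqp8, Aqp4, Aqp1 (1338, 1340 and 1483) and Aqp11 (277, 357 and 318). Of 10 mucins 6 did, where Muc4 (1850, 2665 and 1985) and Muc1 (206, 179 and 153) followed Muc2 and Muc13. Of 82 cytochromes P450 of families 1 to 4, 35 did, led by Cyp2d34 (8020, 6291 and 7499) and Cyp2c55 (5057, 5487 and 5611).

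Some genes that every cell uses were also listed at 0, so a 0 in this table is not always absence. They were Eno1, a glycolytic enzyme, the ribosomal proteins Rpl26 and Rpl30, the complex I subunit Ndufs5, and the initiation factor subunits Eif3j1 and Eif3j2. Rpl34 had 13.5, 3.95 and 10.6 normalized reads and Rps27 16.4, 9.88 and 13.8, against a class median of 11047. The entry Gm5506, a copy of Eno1, had 2116, 2003 and 2264. The cause of these low values was not tested. These genes were picked with their values known.

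Between libraries the spread was widest at low levels. The median coefficient of variation was 28.8% for the 2820 genes with a mean from 10 to 100, 12% for 5888 genes from 100 to 1000, 8.57% for 4443 genes from 1000 to 10000 and 10.4% for 229 genes above that. The libraries differed by more than 2-fold in 1133, 274, 43 and 3 genes of these groups, and library b was the highest in 819, 209, 37 and 1 of them. The last group of 229 includes the 15 genes whose library values rest on the 2-fold choice. Those could not be counted as differing by more than 2-fold, and the spread of that group may be understated.

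The 10 genes of widest spread with a mean of at least 100 were all highest in library b. Sparc, a matrix protein, had 14.5, 293 and 1.06 normalized reads, Igj 56.0, 2176 and 16.9, the proteoglycan Dcn 20.3, 434 and 4.24, and Col3a1, of type III collagen, 27.03, 373 and 7.41. Lyz2, a lysozyme of macrophages, had 105, 952 and 36.0, and fibronectin (Fn1) 28, 402 and 181. H2-Aa, of MHC class II, had 446, 4939 and 303 and Ciita, the activator of that class, 39.6, 349 and 20.1. The whole class summed to 0.0144%, 0.114% and 0.0097% of reads. The other two were enzymes. Pla2g4c, a phospholipase, had 135, 4423 and 1058, and Me1, malic enzyme, 22.2, 312 and 67.8.

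Genes of the early stress response were also higher in library b. Fosb had 470, 2254 and 440, Atf3 352, 1674 and 308, Egr1 1323, 3286 and 1426, and the inducible chaperone Hspa1a 90.8, 755 and 103. Fos had 6759, 10834 and 6239, a narrower gap, and Ier2 4239, 4552 and 5503, highest in c. These too were picked with their values known.

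Other genes separated the libraries in a different order. Rn45s had 15463, 37556 and 68381 normalized reads, or 0.0820%, 0.198% and 0.365% of the library, and Lars2, a mitochondrial tRNA synthetase, 1545, 5552 and 9279. The 4 genes of the gasdermin C group had the same order: Gsdmc2 had 20315, 32650 and 42076, Gsdmc4 22162, 28539 and 31283, Gsdmc3 11607, 13185 and 19867, and Gsdmc 474, 677 and 909. The values of Gsdmc3 and Gsdmc4 rest on the 2-fold choice. The genes are close copies in sequence, so reads could be split among them. Gsdmd, the gasdermin of inflammasome signalling, had 5978, 5550 and 5253, highest in a. Each gasdermin C gene was lowest in a and highest in c, as Rn45s was. What the orders share was not tested.

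Promoters were read from the RefSeq table of mouse build GRCm38.p6, which gave 19839 promoters for 16367 genes of the list. The files' own build is mm9, and the coordinates below are those of GRCm38.p6 only. The TATA box, written here as TATAAA in the direction of the gene, was looked for from 45 to 15 bases before the start, on the gene's strand alone. It was in 2.57% of all promoters. Not every gene had a promoter listed, and some had several. Of the 100 genes of highest mean, 71 gave 85 promoters, and 4.71% of these had the motif (4 of 85). Of the rest of the 1000 highest, 692 genes gave 916 promoters, with 2.29% (21 of 916). The share was 0.928% for the 3985 promoters next in rank (37 of them) and 1.49% for other genes with a mean of at least 10. It was 3.71% for genes with a mean above 0 and under 10, and 5.39% for genes at 0 (216 of 4005). The 250 bases before the start held a median of 13 CpG dinucleotides in the 85 promoters of the highest genes, 17 in the 3985 promoters above and 2 in those of genes at 0. A match is a description of the letters and not evidence of use.

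The 4 promoters of the 100 highest genes with the motif are shown because they are the only ones of those 85; each run is the 60 bases before the start, 5′ to 3′ in the direction of the gene, with the motif in capitals.
Tgm3 (chr2:130012280-130012339, plus strand): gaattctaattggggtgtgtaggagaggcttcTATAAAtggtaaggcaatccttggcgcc
Slc26a3 (chr12:31438159-31438218, plus strand): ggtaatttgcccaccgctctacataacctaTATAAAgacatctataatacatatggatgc
Ddx5 (chr11:106788495-106788554, minus strand): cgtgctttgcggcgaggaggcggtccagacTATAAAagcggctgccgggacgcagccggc
Ppia (chr11:6415807-6415866, plus strand): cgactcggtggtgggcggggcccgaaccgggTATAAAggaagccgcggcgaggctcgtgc

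The motif began 28 to 30 bases before the start in all 4. Tgm3 and Slc26a3 are known from mature surface cells, and Ddx5, an RNA helicase, and Ppia, a folding enzyme (15336, 15810 and 16774 normalized reads), to every cell.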

How the data were processed

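Distal colon crypt RNA of 3 untreated control libraries was described. The submitters' processing notes name TopHat2 2.0, build mm9 and DESeq; which program counted reads, and over which annotation, the sources used here do not say. Per the file headers, the values used are the authors' control means of normalized counts, a signal. The authors' mean of a treated group, their ratio (fold change) and its log2 value in the second deposited table served only to recover reads. Control means were identical in both tables.

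Each printed mean adds up reads of 3 libraries, weighted by size factors. Reads were recovered where only 1 combination of whole numbers matched the digits, alone or together with the other printed values (23340 genes), or where only 1 lay within 2-fold (15). Of 1436 recovered genes with a mean of at least 3000, 99% had libraries within 2-fold. On simulated control reads of 23364 genes, 99.9% were recovered by the first rule, genes at 0 included, with 0 wrong. Of 25 by the second rule 0 were wrong. The simulated reads were made and read back with the same size factors, so neither result tests the size factors estimated from the printed means. The simulated libraries were drawn with little spread between them, so the second rule could hardly fail there. Its 0 therefore says nothing about genes whose libraries differ more. The remaining 9 genes were held at their mean.

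Lengths came from GENCODE M21 transcripts (21730 symbols, and 1273 through RefSeq synonyms). Classes, marker lists and families are symbol lists. Members and lists were chosen with earlier results of these data known, and 4 classes (glycan synthesis, proteases, lipid synthesis, gasdermins) were added with their values in view. The rule for named genes took the 30 highest by mean and 20 per kb, the 3 highest and the defining markers of a list or class, up to 4 members of a family, every Hox gene with a mean of at least 10, the 10 of widest spread among means of at least 100, and Actb, Gapdh and Hprt. Some that it selects are only counted, and some results are not reported here. Other named genes (regional factors, isozymes, hormones, stress genes) were picked with their values known. Python 3.11.15, numpy 2.4.6 and pandas 2.3.3 were used. Alternatives were other weights, lengths, denominators and class orders, and leaving out each library.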

Additional observations from a re-analysis of the deposited data

How the results depend on the processing

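No paired analysis was possible because a single group is described and no test was made. Leaving out a library gave 3.19% to 3.25% for the share of the 10 highest genes, 6261 to 6751 genes at 0, and 26 to 29 of the 30 highest genes shared. The first and last of these say little about stability, because 8 of the 10 highest genes and 9 of the 30 were held at their mean in every library. It gave 4.68% to 5.36% for the ribosomal share, 2.08% to 2.18% for the respiratory share, 1.79% to 1.84% for mucus genes, 1.53% to 1.57% for defence proteins, 1.15% to 1.29% for the absorptive list and 1.5% to 1.59% for the goblet list. The fibroblast share ranged from 0.00406% to 0.0124% and the B and plasma cell share from 0.00141% to 0.0104%, the lowest in each case without library b. The MHC class II share (0.0121% to 0.0643%) and the immunoglobulin share (0.000194% to 0.0059%) were also lowest without b.

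Per kb of the longest transcript, shares were 11.1% for ribosomal proteins, 4.42% for the respiratory chain, 2.26% for mucus genes, 1.88% for defence proteins, 1.5% for the absorptive list and 2.57% for the goblet list; the 10 highest genes held 4.33%, and 11 of the 30 highest were shared. With the median length the values were 8.17% for ribosomal proteins, 3.47% for the respiratory chain, 1% and 2.02% for the absorptive and goblet lists, and 3.89% for the 10 highest genes. Leaving the 10 highest genes out took the mucus share to 0.963% and the defence share to 0.512%, since the leading genes of both are among them. With a mean under 5 or under 10 in place of 0, 9172 and 9975 genes were counted. Of 445 alternative values over 69 results, 113 moved by more than the spread between libraries, or by over 1.5 times for counts; dividing by the longest length moved 50 of 68 and by the median length 47 of 68. Leaving out library a, b or c moved 0 of 69 each by that measure. With 3 libraries, leaving any of them out cannot shift a mean share by as much as the SD between them. These 0s therefore say nothing about stability, and the 445 values include them. Reads of long transcripts weigh more in every share. A library with 0 reads of a gene allows up to 3, so a gene at 0 cannot be told from one at a very low level.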
